A study of Mus musculus with 2 samples.

Results

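The 8 genes described here encode factors of the deep layers of the cerebral cortex: Fezf2, Bcl11b, Sox5, Tbr1, Tle4, Nr4a2, Crym and Etv1. They were chosen by name from the 21938 protein-coding genes of the GENCODE M21 annotation (mm10 build), and all 8 were found there. Each was examined over its gene body plus 10 kb on either side, called its window below, and within 500 bases of each annotated start. Chromatin accessibility had been measured by DNase-seq, in which DNase I cuts DNA that is not wrapped in nucleosomes and the cut ends are sequenced. The tissue was left cerebral cortex of female B6CASTF1/J mice, a cross of C57BL/6J and CAST, aged 18 to 20 months. There was 1 group with 2 libraries, called library 1 and library 2 by the replicate number in their labels. The labels call them biological replicates. Both carry the same donor identifier and different tissue sample identifiers, so they may not be separate animals and their spread may be technical. There was no second condition, so the values below describe the genes and the spread between both libraries, and no test was made.

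Deep layer neurons send the axons that leave the cortex, to the thalamus, the brainstem and the spinal cord. Their identity rests on factors that repress each other: in the developing mouse cortex, Fezf2 and Bcl11b promote the fate of neurons that project to the spinal cord, while Tbr1 and Sox5 act in neurons that project to the thalamus and in the subplate. Open chromatin at a start marks a promoter that the transcription machinery can reach, and open regions elsewhere in a locus often include enhancers. The measurement was made on whole cortex and holds no layer information, so it cannot show which cells were open, and open chromatin in fewer cells cannot be told apart from less open chromatin per cell.

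Markers of several cell types were examined for peaks at their promoters. All 6 excitatory neuron markers had a peak at their promoter in each library, as did 5 of 6 astrocyte, 4 of 6 inhibitory neuron and 3 of 6 oligodendrocyte markers, against 1 of 6 microglial, 2 of 6 endothelial, 1 of 6 erythroid and 0 of 6 liver markers. Markers of striatal neurons, which also use Bcl11b, had one in 6 of 6. Over all protein-coding genes the share with one in both libraries was 63.6%, so lists of 6 genes do not identify the tissue. The peak lists used, the longer of those deposited for each library, held 132054 regions in library 1 and 139799 in library 2, of which 114 and 155 lay in the 8 windows. Peak strength is given below as the authors' signal per peak, whose normalization is not stated, and its median over all peaks was 0.640 in library 1 and 0.641 in library 2. The sequencing depth is unknown. The intervals below cover counting error only.

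Every one of the 8 genes had a peak at its promoter in each library, but only that of Tle4 was stronger than the median open promoter. Of all protein-coding genes, 63.6% did so (64.5% in library 1 and 66.5% in library 2). The median over the 8 genes of the strongest promoter peak was 1.42 in each library. For the 13956 genes of the genome whose promoter was open in both it was 3.13 in library 1 and 3.47 in library 2. Tle4, a corepressor of the Groucho family that marks neurons projecting to the thalamus, had a promoter signal of 12.6 in library 1 and 10.3 in library 2. It exceeded 99.9% and 99.6% of those genes, while the other 7 lay between the percentiles 2.40 and 38.6. Even its lower library stood far above the next gene, Nr4a2, at 2.34 in its higher one, so this difference was larger than the spread between libraries. Down the order Tle4, Nr4a2, Bcl11b, Etv1, Tbr1, Sox5, Fezf2 and Crym, the ranges of neighbouring genes overlapped only for Fezf2 and Crym.

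Tle4 (chromosome 19, 14448150 to 14598051, minus strand) carried this signal in a peak at chr19:14598121-14598560 in both libraries, which began 70 bases upstream of its main start. Its central 200 bases are shown because they carry the strongest promoter of the group. In this and the following sequences the plus strand of mm10 is given, and capitals mark bases that lay in a footprint, a short stretch protected from the enzyme, in both libraries unless stated otherwise.
Tle4 promoter, chr19:14598241-14598440: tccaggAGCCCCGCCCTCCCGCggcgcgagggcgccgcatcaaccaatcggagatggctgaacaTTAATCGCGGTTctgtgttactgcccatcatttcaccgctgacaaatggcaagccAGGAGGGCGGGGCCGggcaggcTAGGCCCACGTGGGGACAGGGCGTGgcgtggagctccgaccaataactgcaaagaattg
In this stretch 68 of 200 bases were marked. Both matches of the letters GGGCGG, bound by SP and KLF factors and searched on both strands like all motifs here, lay wholly in marked bases. Both matches of CCAAT lay outside them. Over all peaks, the central 200 bases held GGGCGG in 16.2% of library 1 and 16.3% of library 2, and CCAAT in 22.4% and 22.0%. A second start inside Tle4, of a transcript that keeps an intron, had a peak of 0.517 in library 1 and 0.598 in library 2. The window of this gene of 149.9 kb held 11 peaks in library 1 and 8 in library 2. Among the 200 protein-coding genes of nearest length these counts stood at percentiles of 46.2 and 26.2. Of these peaks, 8 in library 1 and 5 in library 2 lay more than 500 bases from a start. Their median signal was 0.351 in each library. The strongest pair of these, at chr19:14463381-14463580 in library 1, had 0.569 ± 0.0244 (SD, n = 2), and the next, at chr19:14539103-14539286, had 0.381 ± 0.0284.

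**Figure D1:**
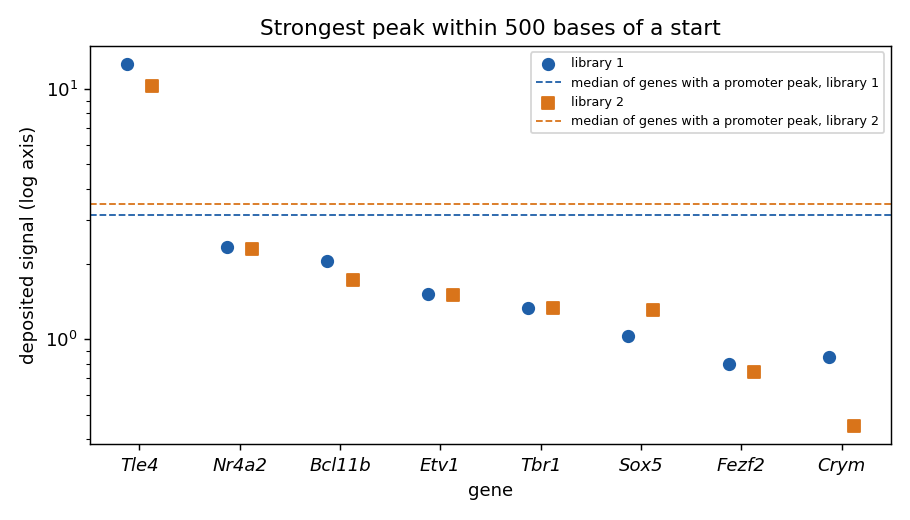
Signal of the strongest peak within 500 bases of any start (log axis) for each gene, with circles for library 1, squares for library 2 and dashed lines for the median of the 13956 genes whose promoter was open in both. Tle4 stands at 12.6 and 10.3, and the other 7 genes stand below both lines.

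Nr4a2 (Nurr1; chromosome 2, 57106830 to 57124003, minus strand), an orphan nuclear receptor of subplate and deep layer neurons that neuronal activity can also induce, had the next strongest promoter. Its signal was 2.34 in library 1 and 2.29 in library 2. Of its 4 annotated starts, the one at 57115038 lay in this peak, the outermost one at 57124003 had a peak of 1.33 and 1.32 beside it, and the innermost coding start at 57113072 had none in either library. The start at 57114373 had a peak of 1.23 in library 1 alone. All 260 bases of that peak had a false discovery rate under 0.05 in library 2 as well, in the per-base tables that the authors deposited, although no peak was listed there. The 200 bases before the start at 57115038 are shown because they hold the letters of the cyclic AMP response element, which CREB, a factor that neuronal activity switches on, can bind.
Nr4a2 upstream, chr2:57115039-57115238: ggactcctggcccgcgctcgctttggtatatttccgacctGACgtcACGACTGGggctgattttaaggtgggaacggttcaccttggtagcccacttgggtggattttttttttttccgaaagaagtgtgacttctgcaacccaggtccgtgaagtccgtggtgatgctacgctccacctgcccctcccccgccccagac
The letters TGACGTCA began at position 40 of this window, counted from its left end, and 4 of their 8 bases were marked in both libraries. In library 2 the footprint at 57115079 to 57115092 held the middle of the match. GGGCGG matched at position 190, outside marked bases. Of all peaks, 0.744% in library 1 and 0.693% in library 2 held TGACGTCA in their central 200 bases, and the match is a description of these letters only. The window of Nr4a2 held 7 peaks in library 1 and 7 in library 2. Among the 200 protein-coding genes of nearest length this was at percentiles of 90.5 and 87.5. The 4 peaks of Nr4a2 more than 500 bases from a start were all intronic, and the strongest pair of them, at chr2:57116701-57117020 in library 1, had a signal of 1.33 ± 0.182 (SD, n = 2). The next, at chr2:57117701-57117860 in library 1, had 0.980 ± 0.0186.

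Bcl11b (CTIP2; chromosome 12, 107910403 to 108003602, minus strand), a zinc finger factor needed for corticospinal axons and also used by striatal neurons, differed in layout. Its promoter signal was 2.06 in library 1 and 1.73 in library 2, but this peak began 439 bases upstream of the outer start in library 1 and 379 in library 2. Neither of its 2 starts lay in a peak, although both are coding, and within 500 bases of the inner start library 1 had 0 bases and library 2 had 8 bases with a false discovery rate under 0.05. A stronger peak lay inside the gene, 4394 bases from the nearest start, with a signal of 2.52 in library 1 and 3.22 in library 2. It is shown as the strongest peak away from starts in any of the 8 windows.
Bcl11b intron, chr12:107998831-107999030: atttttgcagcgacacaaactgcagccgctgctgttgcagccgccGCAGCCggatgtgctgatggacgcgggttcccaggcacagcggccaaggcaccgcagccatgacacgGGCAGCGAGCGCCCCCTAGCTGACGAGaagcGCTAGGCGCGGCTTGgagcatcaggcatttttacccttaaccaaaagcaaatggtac
In this window 48 bases were marked, and none of the 21 motifs searched matched exactly. The search allowed no mismatch, so sequences close to a motif were not counted and may be present here. Bcl11b held 18 peaks in library 1 and 19 in library 2, percentiles of 96.2 and 91.0 among genes of nearest length, and 17 and 18 of them lay more than 500 bases from any start, with medians of 0.919 and 0.823. These are the highest such medians of the group in library 1, and in library 2 only Nr4a2 had a higher one, at 0.894. The next strongest pair away from starts lay upstream, at chr12:108006301-108006560 in library 1, with 1.52 in library 1 and 1.69 in library 2. Of the Bcl11b peaks 16 of 18 in library 1 and 17 of 19 in library 2 overlapped a peak of the other library.

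Etv1 (Er81; chromosome 12, 38779380 to 38870484, plus strand), an ETS factor of layer neurons that project below the cortex, had 13 annotated starts in a divided pattern. The first 8, over 1749 bases, had a peak within 500 bases in both libraries, and the other 5 had none in either. The strongest promoter peak averaged 1.51 ± 0.00925 (SD, n = 2), although the values of the libraries come from different regions. The peak upstream of the first start, at chr12:38778581-38778920 in library 1, had a signal of 1.5 in each library, a log2 ratio of 0.00, and that over the next starts had 1.52 in library 1 and 1.18 in library 2. The upstream peak is shown because its signal differed least between the libraries of all pairs in the group.
Etv1 promoter, chr12:38778651-38778850: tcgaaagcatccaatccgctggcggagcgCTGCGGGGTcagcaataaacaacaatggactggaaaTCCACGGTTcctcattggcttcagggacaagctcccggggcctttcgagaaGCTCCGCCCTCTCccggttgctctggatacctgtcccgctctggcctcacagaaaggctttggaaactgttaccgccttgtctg
The match of GGGCGG, at position 120, lay in marked bases. Overlapping matches of the SOX letters AACAAT and ACAATGG, at positions 50 and 51, and 2 matches of CCAAT lay outside them, and in library 2 alone a footprint at 38778701 to 38778709 covered the middle of both SOX matches. ACAATGG was found in 2.10% and 2.03% of all peaks by their central 200 bases, and AACAAT in 6.74% and 5.92%. Etv1 held 9 peaks in library 1 and 7 in library 2, percentiles of 59.0 and 36.0 among genes of nearest length. Of these, 4 and 2 lay away from starts, led by a pair at chr12:38790081-38790240 with 1.05 ± 0.101 (SD, n = 2). The next pair, at chr12:38788711-38788796 in library 1, had 0.409 ± 0.0285.

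Sox5 (chromosome 6, 143828425 to 144781977, minus strand), a factor that controls when the successive kinds of deep layer neuron arise, is by far the longest of the 8 genes, at 954 kb. Of its 12 starts 8 had a peak in both libraries and the 4 innermost had none. The outermost starts had 1.03 in library 1 and 1.31 in library 2, but they belong to transcripts without a coding sequence. The coding starts from 144209452 to 144209568 had 0.531 in library 1 and 0.832 in library 2. It held 50 peaks in library 1 and 71 in library 2, of the 114 and 155 peaks of all windows, but per length its 0.514 peaks per 10 kb in library 1 were fewer than in all others of the group except Fezf2, and its 0.729 in library 2 fewer than in all but Tle4 and Etv1. Among genes of nearest length the peak counts of Sox5 stood at percentiles of 72.0 in library 1 and 85.5 in library 2. Its window also holds 7 noncoding genes, which start inside it. Its strongest pair away from starts lay in an intron at chr6:144452741-144452920 in library 1, with 1.45 in library 1 and 1.43 in library 2, and the next at chr6:144075021-144075220 with 1.12 and 1.26.

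**Figure D2:**
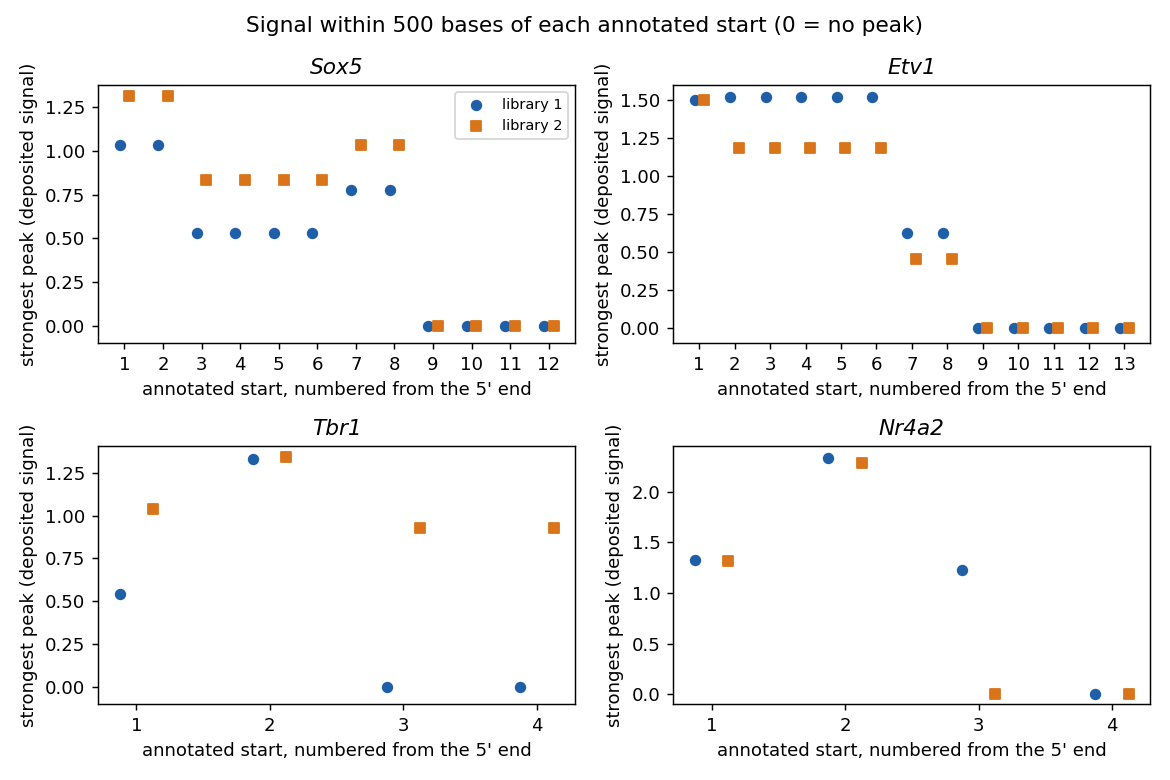
Signal of the strongest peak within 500 bases of each annotated start of Sox5, Etv1, Tbr1 and Nr4a2, numbered along the gene from its 5' end, with circles for library 1 and squares for library 2. A value of 0 means no peak: 4 of 12 starts of Sox5 and 5 of 13 of Etv1 had none in either library.

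Over the 8 genes, 26 of the 41 annotated starts had a peak in both libraries, 1 in library 1 alone, 2 in library 2 alone and 12 in neither. Of the 29 starts with a protein-coding transcript 19 had a peak in both and 9 in neither. The share over all annotated starts of the genome was not counted. Some starts lie so close that their windows largely coincide. Examples are the closed starts of Sox5, from 143947088 to 143947106, and those of Etv1 from 38783470 to 38783509. The counts and the CpG values below therefore include some regions more than once. At Etv1, Nr4a2 and Fezf2 the closed starts were poorer in CpG than the open ones. The ratio of observed to expected CpG within 500 bases was 0.131 to 0.221 at the 5 closed starts of Etv1, against 0.453 to 0.688 at its 8 open ones. At Nr4a2 it was 0.322 at the start with no peak, against 0.853 to 0.866 at the others. Bcl11b and Sox5 did not follow this, and Tbr1 and Tle4 had no start that was closed in both libraries. The closed inner start of Bcl11b had 0.805 and its open one 0.788. The Tbr1 start at 61802930, open in both libraries, had 0.254, and those open in library 2 alone had 0.521 and 0.525. The open inner start of Tle4 had 0.387. In Sox5 the open coding starts had 0.303 to 0.375, against 0.333 to 0.337 at the closed ones. Its open noncoding starts had 0.735 and 0.771 at the outer end, and 0.251 and 0.293 at 144204057 and 144204427. By the highest value among each gene's starts, the median over the 8 genes was 0.788, against 0.627 over all protein-coding genes. These are descriptions with no test.

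Tbr1 (chromosome 2, 61802930 to 61814114, plus strand), a T-box factor of neurons that project to the thalamus, was packed with open regions. Its window of 31.2 kb held 14 peaks in library 1 and 19 in library 2, or 4.49 and 6.09 per 10 kb. Some overlap, and merged they make 12 and 14. The density compares with a median of 0.779 in library 1 and 0.829 in library 2 over all protein-coding genes. Among the 200 protein-coding genes of nearest length this count stood at a percentile of 99.0 in library 1 and was the highest in library 2. False discovery rates under 0.05 covered 18.3% of the window in library 1 and 21.7% in library 2, against a median of 2.69% and 3.09% over all protein-coding genes. The peaks were spread over the gene and just beyond its end, and none lay in the 10 kb upstream except at the first start. The main coding start at 61804453 lay in the strongest promoter peak, with 1.33 in library 1 and 1.34 in library 2. The start at 61806262 and its neighbour had a peak in library 2 alone, whose edge reached their windows.

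By its mean signal, 1.44 ± 0.188 (SD, n = 2), the strongest peak of the Tbr1 window lay downstream of the gene, at chr2:61815581-61815820 in library 1, with 1.31 in library 1 and 1.57 in library 2. It is shown as the strongest region of this dense window.
Tbr1 downstream, chr2:61815611-61815810: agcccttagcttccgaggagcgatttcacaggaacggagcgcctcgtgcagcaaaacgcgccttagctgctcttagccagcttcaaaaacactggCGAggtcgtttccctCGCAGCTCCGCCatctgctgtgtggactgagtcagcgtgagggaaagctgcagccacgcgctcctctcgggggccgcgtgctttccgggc
Here CATCTG, the reverse complement of the NEUROD letters CAGATG, began at position 122, where its first base was the last of a marked stretch. In library 2 the footprint was longer, 61815719 to 61815738, and covered the middle of the match. The AP-1 letters TGANTCA matched at position 138, outside marked bases. CAGATG was found in the central 200 bases of 22.3% of all library 1 peaks and 21.4% of library 2 peaks, and TGANTCA in 13.2% and 10.5%. The next pair away from starts, in an exon at chr2:61803461-61803740 in library 1, had 1.01 ± 0.218 (SD, n = 2).

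Crym (chromosome 7, 120186380 to 120202111, minus strand), which encodes mu-crystallin, a thyroid hormone binding protein of neurons that project below the cortex, had the weakest promoter by its mean, 0.650 ± 0.283 (SD, n = 2), although in library 1 that of Fezf2 was lower. Its single start had a signal of 0.851 in library 1 and 0.450 in library 2, a log2 ratio of library 2 over library 1 of -0.92. Among the strongest promoter peaks of the 8 genes this was the largest gap between libraries, while a weaker promoter pair of Tbr1, at its start at 61802930, had a log2 ratio of 0.93 (1.04 in library 2 and 0.544 in library 1). The strongest peak of its window was not at Crym: it lay at the start of the neighbouring gene Abca14, at chr7:120203901-120204060 in both libraries, with 2.87 in library 1 and 3.77 in library 2. Crym had 4 peaks in library 1 and 5 in library 2, percentiles of 59.8 and 68.8 among genes of nearest length. Those away from starts were weak, at 0.456 or less in library 1 and 0.419 or less in library 2. None of these was shared, so 2 of its 4 and 2 of its 5 peaks overlapped a peak of the other library.

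**Figure D3:**
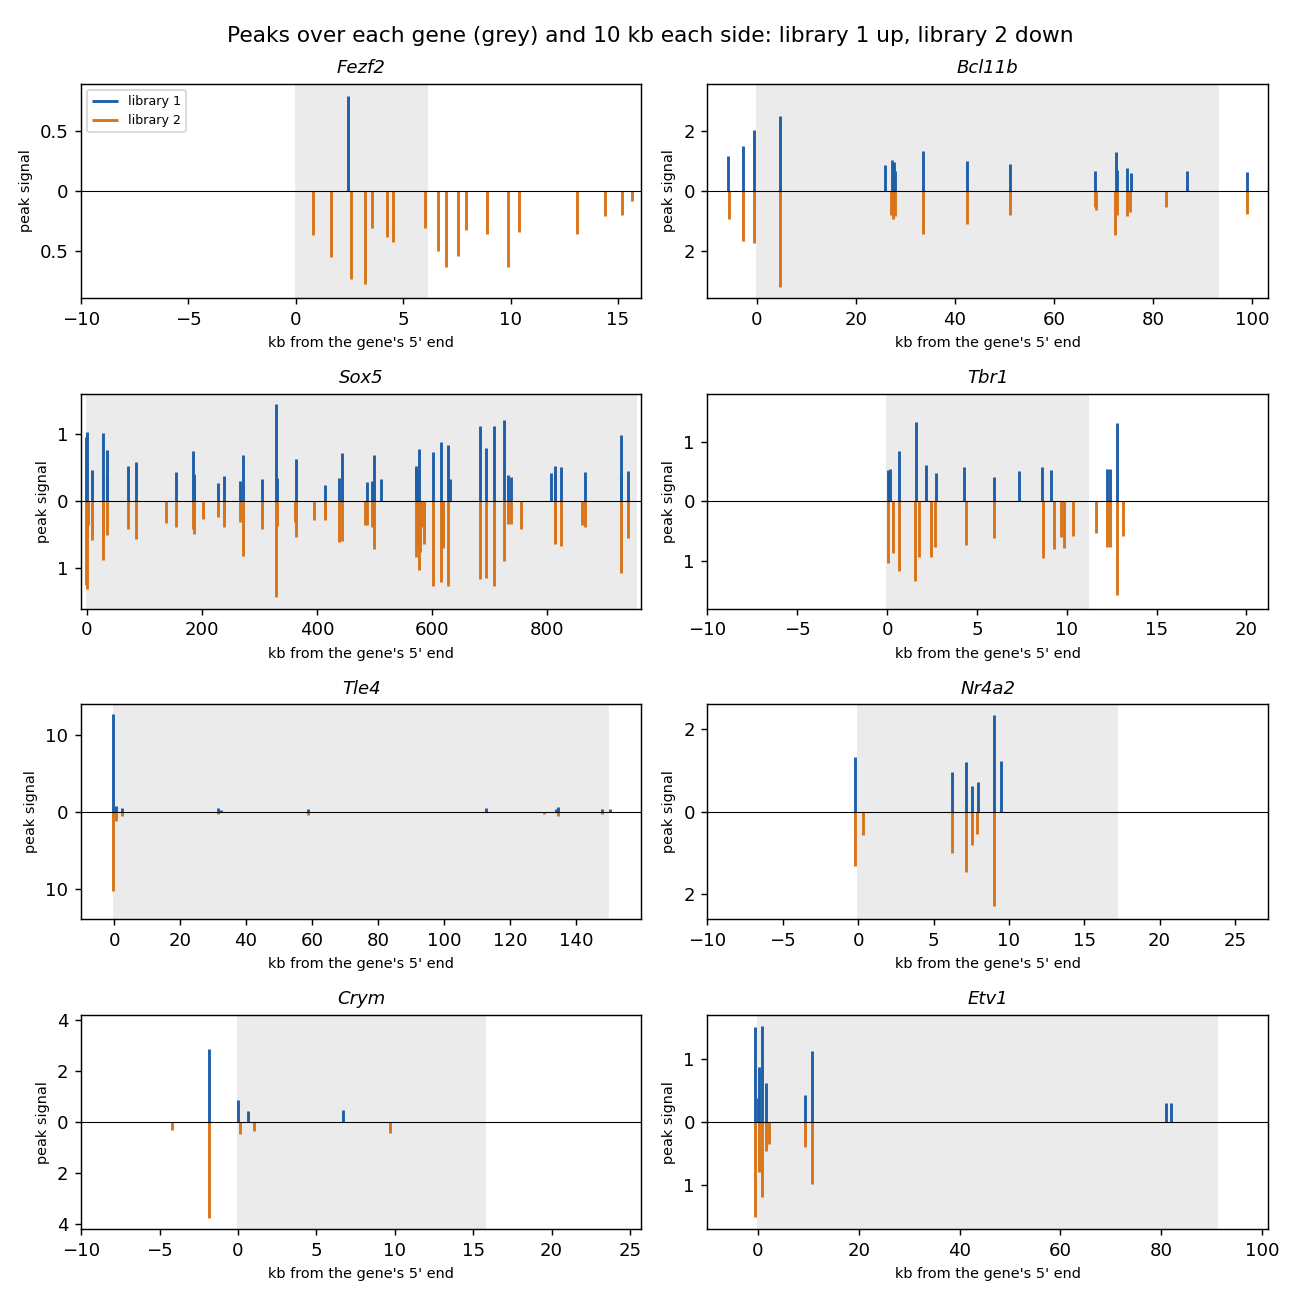
Peaks over each of the 8 genes (grey) and 10 kb on either side, by distance in kb from the gene's 5' end, with bar length giving the deposited signal, upward for library 1 and downward for library 2. The maps mirror each other for most genes, while the Fezf2 map has 1 bar for library 1 and 19 for library 2.

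Fezf2 (chromosome 14, 12342094 to 12348189, minus strand) is the zinc finger factor that directs neurons to project to the brainstem and spinal cord. Of the 8 genes it was the one whose window as a whole differed sharply between the libraries. Its window held 19 peaks in library 2 and 1 in library 1. There were 43 footprints in library 2 and 0 in library 1, and 6047 bases with a false discovery rate under 0.05 in library 2 against 93 in library 1. Among the 200 genes of nearest length the peak count was the highest in library 2 and stood at a percentile of 33.0 in library 1. Across all protein-coding genes, 39 of 21938 (0.178%), Fezf2 included, had an excess of library 2 in peak number at least that large, and 8 had one at least that large per length. Sox5 is among the 39, with 71 peaks in library 2 and 50 in library 1, in a window of 974 kb against 26.1 kb for Fezf2. Within Sox5 a short stretch also differed sharply. From 576000 to 578000 bases from its 5' end, library 2 had 5 peaks and 1462 bases under a rate of 0.05. Library 1 had 1 peak and 185 bases there. From 578000 to 580000 and from 584000 to 586000, library 2 had 759 and 686 such bases and library 1 had 0.

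The strongest peak at the Fezf2 promoter had about the same signal in both libraries, but the extent of open sequence there differed. The peak beside the starts at 12345844 and 12345959 had 0.740 in library 2 and 0.796 in library 1. It was 360 bases wide in library 2 and 80 in library 1, and its lowest false discovery rate was 1.3e-07 in library 2 and 0.024 in library 1. Of the 15604 library 1 peaks with a signal from 0.7 to 0.9, 329 (2.11%) had no rate below 0.02, and the median of their lowest rates was 7.4e-06, so a peak of this signal with so weak a rate was uncommon in library 1. The third start, at 12348189, had no peak in either library. It lay in a stretch poor in CpG, with a ratio of 0.217, against 0.789 and 0.817 at the other 2 starts.

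The additional peaks of library 2 filled the gene and the 10 kb downstream of it, with none upstream. All its peaks together made 11 downstream, 5 in exons, 1 in an intron and 2 at the promoter. They were weak, with a median signal of 0.370. The strongest of the 18 without a partner in library 1, in an exon at chr14:12344741-12345180, had 0.783. The strongest downstream, at chr14:12340941-12341420 and chr14:12338141-12338440, had 0.641 each. Of the downstream peaks only the second held bases under a rate of 0.05 in library 1, 4 in number, and its central 200 bases are shown for that reason. Capitals here mark footprints of library 2.
Fezf2 downstream, chr14:12338191-12338390: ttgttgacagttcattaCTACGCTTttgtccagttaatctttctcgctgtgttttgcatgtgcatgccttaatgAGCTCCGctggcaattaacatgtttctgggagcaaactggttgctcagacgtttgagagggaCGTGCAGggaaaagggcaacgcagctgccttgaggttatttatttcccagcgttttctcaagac
This window held 22 marked bases and 1 match of CAGCTG, at position 158 and outside them, letters found in 17.7% of all peaks of each library. The peaks farthest downstream, near the small nucleolar RNA gene Gm24578, had signals as low as 0.0863, while the lowest rate of the window, 2.3e-13, lay in one of them, so signal and rate ranked these peaks differently.

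The excess of library 2 ran a little past the window. In the bin from 16000 to 18000 bases from the gene's 5' end, which holds the window's edge, library 2 had 3 peaks and 631 bases under a rate of 0.05, and library 1 had 0 of both. Farther out the libraries were closer. Outside the window and within 500 kb of the gene there were 70 peaks in library 2 and 64 in library 1, and the bases under a rate of 0.05 were 19828 and 16913. Tbr1, the densest other window, had 6773 such bases in library 2 and 5701 in library 1. Over all 18193 protein-coding genes with such bases in both libraries, the median ratio of library 2 over library 1 was 1.12. The ratio was 65.0 at Fezf2 and between 0.892 and 1.61 at the other 7 genes, and 13 genes of the genome reached the ratio of Fezf2, itself included. The cause of the difference at Fezf2 was not tested, and with 2 libraries it cannot be told which of them is typical of this tissue.

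**Figure D4:**
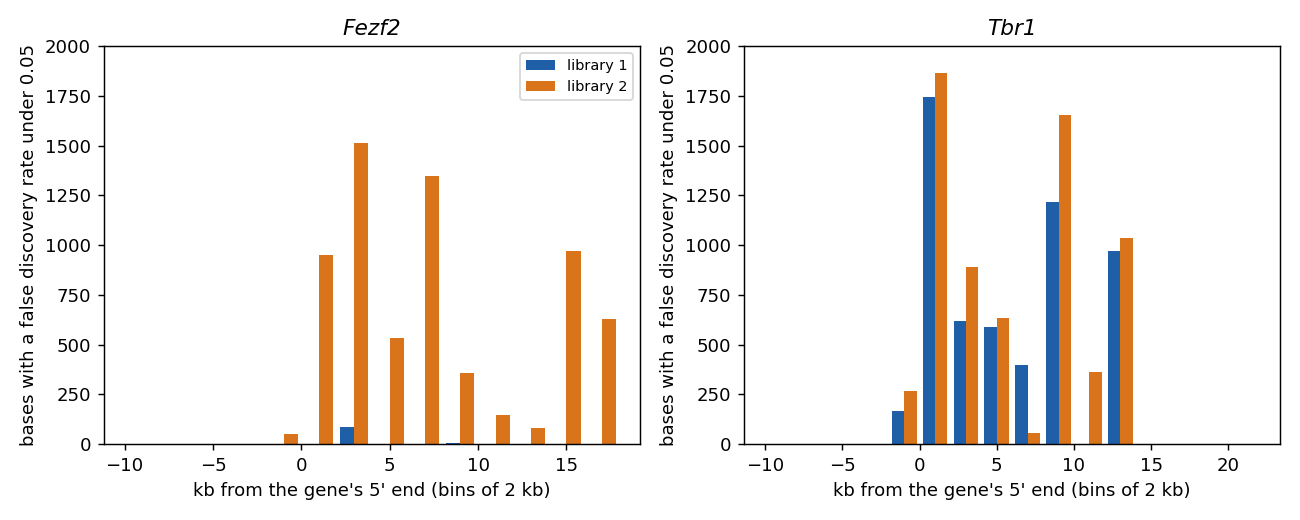
Bases with a false discovery rate under 0.05 in bins of 2 kb along the windows of Fezf2 and Tbr1, by distance from the gene's 5' end, as bars for library 1 and library 2. At Fezf2 the bars of library 1 add up to 93 bases and those of library 2 reach 1513 in a single bin (the last bin runs past the window), while at Tbr1 both libraries have bars in 7 of the 8 bins that hold any.

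Beyond Fezf2, most regions at these genes were listed in both libraries. In all 8 windows, 93 of 114 peaks of library 1 overlapped a peak of library 2 (81.6%, exact binomial 95% interval 73.2 to 88.2%), and 95 of 155 of library 2 overlapped one of library 1 (61.3%, 53.1 to 69.0%). For all peaks the shares were 77.8% and 73.2%. The intervals take peaks as independent, but some overlap each other and those without a partner cluster at a few genes. They may therefore be too narrow. Without Fezf2 the shares at the other 7 genes were 81.4% in library 1 and 69.1% in library 2. Of the 60 unshared peaks of library 2, 18 lay at Fezf2 and 29 at Sox5. The strongest unshared Sox5 peak of library 2, at chr6:144202422-144202880, had 0.758. At the remaining genes the strongest unshared peak was 1.23 at Nr4a2, 0.885 at Bcl11b, 0.436 at Tle4, 0.456 at Crym and 0.388 at Etv1, all in library 1, and 0.783 at Tbr1 in library 2. There were 86 pairs in which each peak was the strongest overlapping partner of the other, and none differed by more than 2-fold. Over the genome 1584 of 99347 such pairs did, so 0 of 86 is close to that share. The median log2 ratio of these pairs, library 2 over library 1, was 0.13 (SD 0.37), against 0.09 (SD 0.40) for all 99347 such pairs of the genome. Library 2 had more peaks than library 1 at 5 of the 8 genes and fewer at 2, where 36.9% and 24.7% of all protein-coding genes did so.

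**Figure D5:**
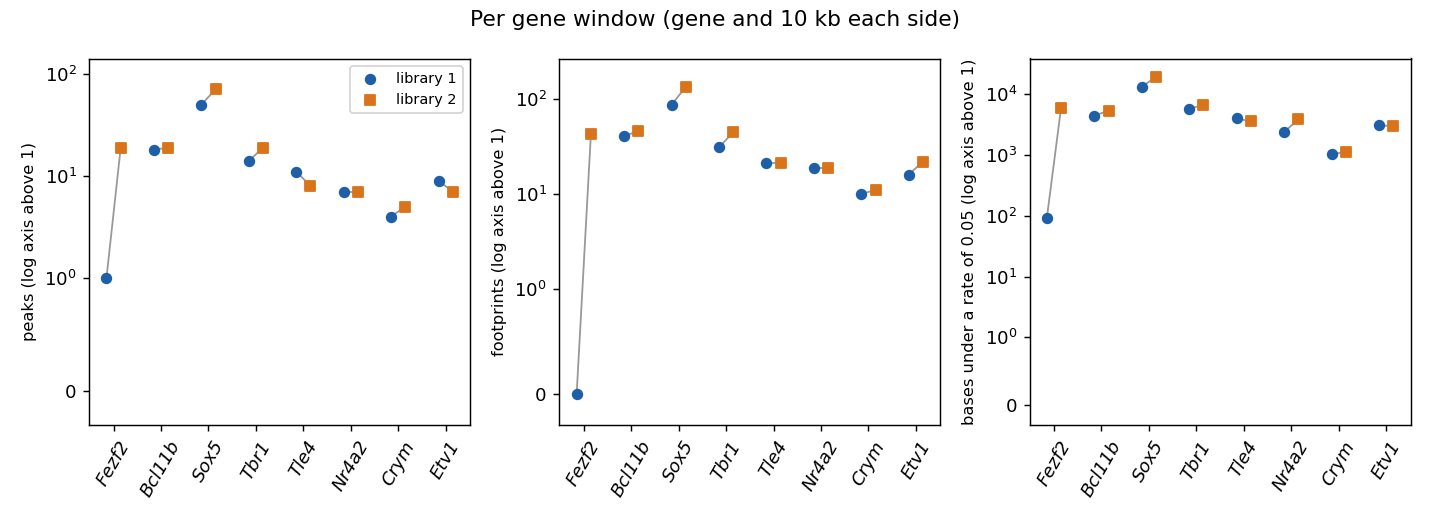
Peaks, footprints and bases with a false discovery rate under 0.05 in the window of each gene, with circles for library 1 and squares for library 2 joined by a line (log axes above 1). The line of Fezf2 is the steepest in each panel, with 19 peaks, 43 footprints and 6047 bases in library 2 and 1, 0 and 93 in library 1.

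The 8 windows held 226 footprints in library 1 and 342 in library 2, of which 205 and 312 touched a peak. Per 10 kb, the 8 genes had a median of 2.12 footprints in library 1 and 3.57 in library 2. Over all protein-coding genes it was 1.81 and 2.18. At least 1 footprint lay in 78.9% of the peaks of these windows in library 1 and 81.3% in library 2, against 76.1% and 78.9% of all peaks. The count was 0 and 43 at Fezf2, 41 and 46 at Bcl11b, 31 and 45 at Tbr1 and 88 and 135 at Sox5. It was 21 in each library at Tle4, 19 in each at Nr4a2, 10 and 11 at Crym and 16 and 22 at Etv1. Within 500 bases of a start, 7 of the 8 genes had a footprint in both libraries, all but Fezf2, where 61.5% of all protein-coding genes did.

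The letters bound by the families of these factors were searched in peaks and footprints. None of the 205 footprints within peaks of library 1 or the 312 of library 2 held the T-box letters AGGTGTGA of the Tbr1 family, the NR4A letters AAAGGTCA or the ETS letters CCGGAAGT, and none of the 114 and 155 peaks held them in their central 200 bases. Among all peaks these letters were found in 1.04%, 0.460% and 0.981% in library 1 and in 0.953%, 0.441% and 0.966% in library 2. Among all footprints within peaks they were found in 0.0785%, 0.0286% and 0.208% in library 1 and in 0.0643%, 0.0261% and 0.214% in library 2. Shares this low leave few or no matches to find in sets of this size. The absence says only that these letters are not in the sequences searched, and sequence between peaks was not searched. The SOX letters did occur: AACAAT was in 7.89% of the peaks of these genes in library 1 and 5.16% in library 2, against 6.74% and 5.92% of all peaks. ACAATGG was in 2.63% and 2.58%, against 2.10% and 2.03% of all peaks. The NEUROD letters CAGATG were in 27.2% of the peaks of these genes in library 1 and 23.2% in library 2, against 22.3% and 21.4% of all peaks. They lay in 8 footprints of library 1 and 9 of library 2, which is 3.90% and 2.88% of those within peaks, against 2.73% and 2.68% of all footprints within peaks. GGGCGG was in 9 footprints of each library, 4.39% and 2.88% of them, against 5.85% and 5.48% of all footprints within peaks, and 3 of these in each library lay in the promoter of Tle4.

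Further genes of the cortical layers were counted in the same way. Of 12 other deep layer genes 11 had an open promoter in each library, the exception being Nxph4. Their median promoter signal was 0.793 in library 1 and 1.11 in library 2, from 0 at Nxph4 to 4.35 ± 0.447 (SD, n = 2) at Pcp4, a calmodulin-binding protein. Of 10 upper layer factors all had one, with medians of 2.25 in library 1 and 2.46 in library 2. Per 10 kb, the 8 genes had a median of 0.965 peaks in library 1 and 1.54 in library 2. The upper layer factors had 1.09 and 1.91, the other deep layer genes 0.835 and 0.927, and all protein-coding genes 0.779 and 0.829. Otx1, another deep layer factor, had 26 peaks in library 2 and 7 in library 1. Neurod2, a factor of excitatory neurons, had 19 in library 2 and 2 in library 1. Both were chosen after their values were seen, because they differ between the libraries in the same direction as Fezf2. Their differences, 19 and 17 peaks, were the largest of their lists. Library 2 had more peaks at 6 of the 12 other deep layer genes and fewer at 1. It had more at 7 of the 10 upper layer factors and fewer at 3. It had more at all 6 excitatory neuron markers. In the other lists, more and fewer were 4 and 1 for inhibitory neurons, 2 and 3 for striatal neurons and 2 and 2 for astrocytes. They were 2 and 1 for oligodendrocytes, 3 and 3 for microglia and 4 and 0 for endothelial cells. For liver they were 0 and 2, and for erythroid markers 2 and 1. Of all protein-coding genes, 36.9% had more and 24.7% fewer. These comparisons of lists were not tested.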

How the data were processed

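DNase-seq of left cerebral cortex gave 2 libraries of 1 group. Per the deposited readme files, peaks, footprints and per-base tables were made from the alignments of each library on mm10, without pooling. Not given in the sources used here were the aligner, the callers, their thresholds and the placing of CAST reads. The authors deposited a signal per peak with no stated normalization. The deposited per-base tables hold false discovery rates, as q-values under 0.05, and every line of the deposited footprint lists holds the q-value 0.01. The longer of both peak lists was used.

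The GENCODE M21 annotation and the GRCm38.p6 (mm10) assembly of RefSeq covered the autosomes (1 to 19) and the sex chromosomes. A peak, footprint or run counted with 1 base or more in a window. Percentiles of peak counts are ranks among the 200 protein-coding genes of nearest window length, and those of promoter signal among the 13956 genes with a promoter peak in each library. Promoter signal is the strongest peak within 500 bases of any start. Matches counted in footprints had their middle in one. Interval counts, sharing and motif search were checked on simulated data. Named were the 8 genes, their strongest promoter peak, the 2 strongest matched pairs away from starts (over 500 bases from any start) and the strongest unshared peak. For Crym and Fezf2 no such pair exists. The genes and lists were chosen with earlier results of these data known, and the comparisons by signal and rate, by surroundings and by rank of difference were chosen after the values were seen. Software was matplotlib 3.10.9, scipy 1.17.1, pandas 2.3.3, numpy 2.4.6 and Python 3.11.15.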

Additional observations from a re-analysis of the deposited data

How the results depend on the processing

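Promoter peaks were found in both libraries for 6 of the 8 genes with the shorter peak lists (Fezf2 and Crym were lost), 7 among peaks at or above the median signal, 7 with 250 bases around each start (Bcl11b was lost) and all 8 with 2000 bases or coding starts only. The mean number of peaks in the 8 windows, 134 over both libraries, was 114 to 155 by library alone, 66.5 in the shorter lists, 60 at or above the median signal, 114 with no flank, 160.0 with 50 kb and 128 with overlapping peaks merged. The mean share of shared peaks, 71.4%, was 61.3 to 81.6% by library, 53.3% where 50% of both peaks had to overlap and 75.3% without Fezf2 (chosen after seeing the data). Bases under a rate of 0.05 averaged 41558, and 18649.5 under 0.001. Footprints averaged 284, from 226 to 342 by library. Matches of the 21 motifs in footprints averaged 31.5 (28 to 35 by library), against 209 in whole peaks and 14.5 footprints with a match that overlapped a footprint of the other library. Fezf2 had a mean of 4.50 peaks in the shorter lists. Its promoter peak was not in the shorter list of library 1. With starts of protein-coding transcripts only, the promoter signal of Sox5 was 0.682 in place of 1.17, and with 2000 bases that of Crym was 3.32 in place of 0.650, because the peak at Abca14 was then counted. No paired analysis was possible because there is 1 group. Depth is unknown, so an absent peak is one not listed here.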
